A study of Mus musculus with 6 samples.

Results

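Genes of cholesterol synthesis, its control, and the uptake, movement and efflux of sterols were compared between the cerebellum of Sp4 hypomorphic mice and that of wild-type littermates. A total of 31 genes was chosen by pathway: 18 that encode synthesis enzymes, 6 regulators and 7 genes of uptake, intracellular transport, storage or efflux, called transport genes here. Of these, 26 had probes under their symbol, and 24 were above background, with a detection p below 0.05, on 3 or more of 6 arrays, among 10764 named genes that did so. The 24 were 14 synthesis genes, 5 regulators and 5 transport genes, with 37 tested probes. Idi1, the isomerase of the isoprenoid units, was above background on 1 hypomorph and 1 wild-type array, and the efflux pump gene Abca1 on 0 arrays, so neither was tested. Acat2, Hmgcs1, Fdft1, Nr1h2 and Soat1 were not analysed here.

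The hypomorphs carried the genotype Sp4neo-/-, and a hypomorphic allele lowers a gene's product or function without necessarily removing it. Both groups were male mice of a Black Swiss X CD1 cross at postnatal day 21, with 3 arrays each, and each array was taken as 1 animal. Total RNA of whole cerebellum was read on Illumina bead arrays with 45281 probes. Between 41.2% and 44.5% of probes were above background on an array. Sp4 itself, by its brighter probe, read 5.99, 5.80 and 6.32 (log2 intensity) on hypomorph arrays 1, 2 and 3, against 7.82, 6.86 and 7.35 on wild-type arrays 1, 2 and 3, so the groups did not overlap. Its log2 difference was -1.30 (SE 0.26) with an adjusted p of 0.355 in limma, and it was -0.60 with the authors' processed values. The other tested Sp4 probe was above background on 0 hypomorph arrays and 3 wild-type arrays. Cerebellar markers were bright on all 6 arrays, with Pcp2 of Purkinje cells between 14.78 and 14.98 and Cbln1 of granule cells between 14.92 and 15.38. Differences below are hypomorph minus wild type on the log2 intensity scale, and no level is compared between genes, because probes differ in brightness.

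Cholesterol in the brain is made within the brain, since lipoproteins of the blood do not pass the blood-brain barrier in bulk. Cells build it from acetyl units through mevalonate, farnesyl diphosphate, squalene and lanosterol. Oligodendrocytes use much of it for myelin, which is still being laid down at this age. The membrane-bound factors encoded by Srebf1 and Srebf2 switch the synthesis genes on when sterol is scarce. Scap escorts these factors to the Golgi for cleavage, and the Insig proteins hold Scap back when sterol is plentiful. Excess sterol leaves cells through ABC transporters, and in neurons also by hydroxylation.

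Most synthesis genes had lower values in the hypomorph and all tested transport genes had higher ones, but none of these differences passed the test. Lower values were found for 12 of 14 synthesis genes, 3 of 5 regulators and 0 of 5 transport genes, where 51.9% of all named genes had lower and 48.1% higher values. The median log2 difference was -0.23 over synthesis genes, -0.01 over regulators and 0.15 over transport genes, beside -0.01 over all named genes. In limma, with p-values adjusted by Benjamini-Hochberg across 19515 probes, 0 of the 24 genes and 0% of the probes passed an adjusted p of 0.05. At an unadjusted p under 0.05 there was 1 gene, Cyp51, which was lower, where 3% of named genes were lower and 2.23% higher at that p, 5.23% in all. At an unadjusted p under 0.1 there were 6 lower genes (5.46% of named genes) and 2 higher ones (4.3%). The groups did not overlap in 1 lower gene, Sc5d (5.55% of named genes), and in 4 higher ones, Ebp, Insig2, Lrp1 and Abcg1 (5.5%). The genes were chosen with earlier results of these arrays known, so these counts are descriptions. With single values, an exact two-sided permutation test of 3 against 3 arrays cannot go below a p of 0.1.

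**Figure D1:**
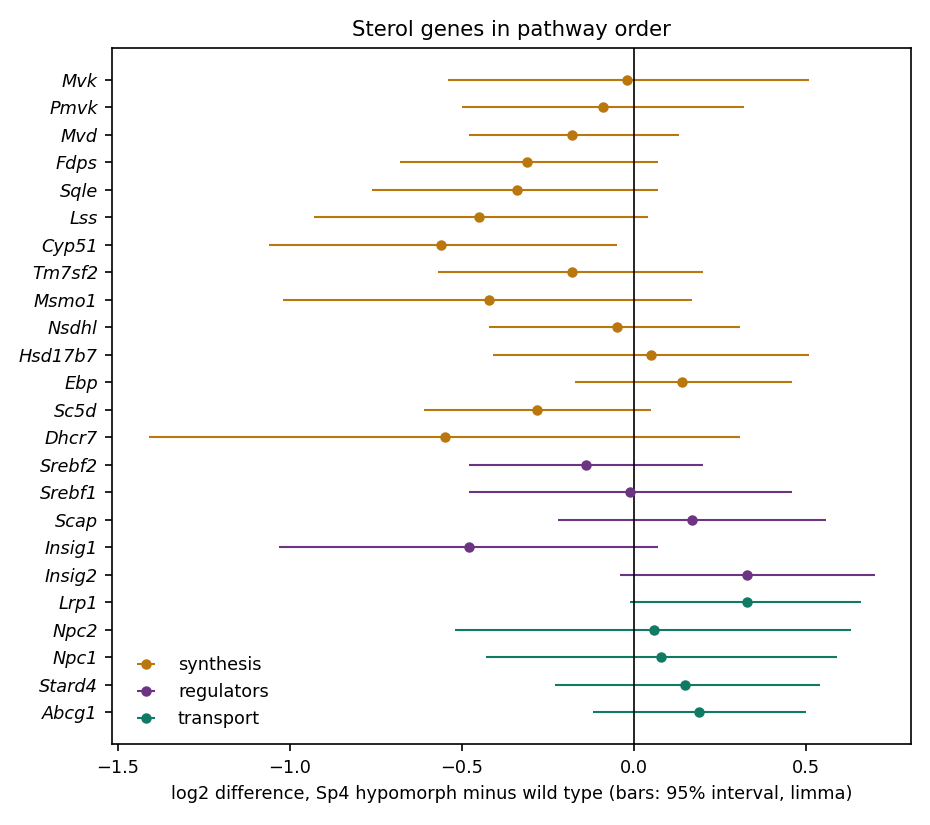
Log2 difference (hypomorph minus wild type, x axis) of each tested sterol gene by its brightest probe, in pathway order from top to bottom, with bars for limma's 95% interval (3 arrays per group). Cyp51, at -0.56, is the only gene whose bar leaves out 0, and all 5 transport genes lie to the right of 0.

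The precision of these values is low. Standard errors of the 24 genes ran from 0.13 to 0.37 on the log2 scale, and the 95% interval held 0 for 23 of them. Across all 24 genes these intervals lay between -1.41 and 0.70, so a change of either sign within its own interval cannot be told from none for those 23. In whole tissue, fewer cells of a type and less RNA per cell cannot be told apart.

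Promoter sequence was available in the RefSeq promoter table (build GRCm38.p6) for 19 of the 24 genes. Since Sp factors are known to bind GC boxes, the 250 bases before each start site were searched for GGGCGG, for CCAAT, the core of the site of NF-Y, a partner of the sterol factors, and for TCACNCCAC, a sterol regulatory element, each on both strands. A GC box was found for 18 of the 19 genes, against 64.3% of 8690 tested genes with an entry and 35.4% of all 27025 genes of the table, with Pmvk as the exception. CCAAT was found for 17 of the 19, against 40.7% of tested genes with an entry, and it was missing for Lrp1 and Scap. The element TCACNCCAC was found for 0 of the 19 and for 1.27% of tested genes with an entry. Only this spelling was searched, so its absence does not show that a window lacks other forms of the element. A match shows only that the letters are present in the window, and a gene with several start sites was counted once if any window held the motif. The windows of 5 genes that the results below return to are printed, 4 with lower values and Lrp1 with a higher one, with GC boxes in capitals. They lie at chr5:4104698-4104947 (minus strand) for Cyp51, chr10:76531355-76531604 (plus) for Lss, chr9:42264301-42264550 (minus) for Sc5d, chr5:28071162-28071411 (plus) for Insig1 and chr10:127621149-127621398 (minus) for Lrp1.
Cyp51: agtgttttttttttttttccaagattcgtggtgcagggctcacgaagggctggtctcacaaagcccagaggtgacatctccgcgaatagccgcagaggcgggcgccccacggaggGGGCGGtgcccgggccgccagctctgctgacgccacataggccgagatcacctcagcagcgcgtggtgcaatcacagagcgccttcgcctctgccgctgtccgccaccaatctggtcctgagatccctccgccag
Lss: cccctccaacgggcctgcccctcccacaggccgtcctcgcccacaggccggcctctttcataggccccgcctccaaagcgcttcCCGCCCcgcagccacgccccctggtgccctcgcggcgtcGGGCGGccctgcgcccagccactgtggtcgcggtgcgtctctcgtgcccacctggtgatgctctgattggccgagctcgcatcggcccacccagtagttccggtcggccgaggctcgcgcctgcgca
Sc5d: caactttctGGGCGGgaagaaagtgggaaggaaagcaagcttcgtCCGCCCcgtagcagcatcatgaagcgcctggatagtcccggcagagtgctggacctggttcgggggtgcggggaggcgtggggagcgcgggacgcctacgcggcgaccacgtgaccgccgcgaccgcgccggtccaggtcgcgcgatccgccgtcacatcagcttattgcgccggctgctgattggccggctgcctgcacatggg
Insig1: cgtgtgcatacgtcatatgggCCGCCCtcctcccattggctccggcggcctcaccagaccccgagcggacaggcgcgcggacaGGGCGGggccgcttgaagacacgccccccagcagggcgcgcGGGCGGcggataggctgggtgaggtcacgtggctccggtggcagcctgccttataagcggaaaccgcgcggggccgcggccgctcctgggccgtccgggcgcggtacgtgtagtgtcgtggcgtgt
Lrp1: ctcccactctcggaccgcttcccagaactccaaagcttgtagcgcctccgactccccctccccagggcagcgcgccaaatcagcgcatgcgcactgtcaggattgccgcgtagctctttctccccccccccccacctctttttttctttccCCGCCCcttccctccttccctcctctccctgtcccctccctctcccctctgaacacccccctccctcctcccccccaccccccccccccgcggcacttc
Insig1 held 3 GC boxes, Lss and Sc5d 2 each, and Cyp51 and Lrp1 1 each. The box nearest to a start site among these 5 windows began 99 bases before that of Lrp1.

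The tested genes of the early steps, up to farnesyl diphosphate, differed by -0.02 to -0.31. Mvk and Pmvk, the kinases that act on mevalonate, differed by -0.02 (SE 0.22) and -0.09 (SE 0.17), and Mvd, the decarboxylase that follows them, by -0.18 (SE 0.13). Hypomorph 2 was the lowest array for both kinases, at 5.60 for Mvk and 9.05 for Pmvk, while the other hypomorph arrays lay within or above the wild-type values as printed. Fdps, farnesyl diphosphate synthase, makes the product at which the sterol path parts from other isoprenoids. It read 12.14, 11.98 and 12.15 on hypomorph arrays 1, 2 and 3, against 12.54, 12.13 and 12.52 on wild-type arrays 1, 2 and 3. Hypomorph values were close together, and only wild-type array 2 fell among them. The difference of Fdps was -0.31 (SE 0.16, unadjusted p = 0.0937, adjusted p = 0.985 in limma). A second, dimmer Fdps probe differed by 0.03 (SE 0.26), with 6.49, 6.80 and 6.66 on hypomorph arrays, against 6.04, 6.98 and 6.84 on wild-type arrays. Over the 4 tested genes of these early steps, 4 had lower values and the median was -0.13.

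After squalene, 8 of 10 genes had lower values, with a median of -0.31. The early and late steps were not tested against each other. Squalene epoxidase, encoded by Sqle and a rate-controlling step, read 12.19, 11.66 and 11.83 on hypomorph arrays, against 12.36, 12.06 and 12.30 on wild-type arrays. Hypomorph 1 lay among the wild-type values and the other hypomorph arrays below all of them. The difference was -0.34 (SE 0.18, unadjusted p = 0.0924, adjusted p = 0.985 in limma), and a second Sqle probe differed by -0.07 (SE 0.16). Lss, the cyclase that forms lanosterol, read 8.41, 8.04 and 7.82 on hypomorph arrays, against 8.56, 8.27 and 8.79 on wild-type arrays. Here too hypomorph 1 was above the lowest wild-type array, number 2. Lss differed by -0.45 (SE 0.21, unadjusted p = 0.0659, adjusted p = 0.969 in limma). On its second probe, above background on 1 hypomorph and 2 wild-type arrays, it differed by -0.15 (SE 0.17).

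Cyp51, the demethylase that acts on lanosterol, had the lowest difference of the 24 genes. It read 10.78, 10.23 and 10.50 on hypomorph arrays, against 11.35, 10.70 and 11.12 on wild-type arrays. Its means were 10.50 ± 0.28 in the hypomorph and 11.06 ± 0.33 in wild type (SD, n = 3 each). The groups overlapped, because hypomorph 1 lay just above wild-type array 2. The difference was -0.56 (SE 0.22, 95% interval -1.06 to -0.05), or 0.680-fold (unadjusted p = 0.0362, adjusted p = 0.900 in limma).

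The enzymes that follow differed less evenly. Msmo1, the methylsterol oxidase, averaged 11.59 ± 0.37 in the hypomorph and 12.01 ± 0.38 in wild type (SD, n = 3 each), a difference of -0.42 (SE 0.25). Its groups overlapped, and array 2 was the lowest in both. Nsdhl, a sterol dehydrogenase, had 4 tested probes, with differences of -0.05, -0.05, 0.14 and -0.24 (SE 0.16, 0.14, 0.16 and 0.16), so they differed in sign. Its brightest probe read 8.60, 8.64 and 8.32 on hypomorph arrays, against 8.75, 8.41 and 8.56 on wild-type arrays, which overlapped widely. Tm7sf2, a sterol reductase, differed by -0.18 (SE 0.16), and Hsd17b7, a sterol ketoreductase, by 0.05 (SE 0.20).

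At the last steps the genes parted in direction. Ebp, the sterol isomerase, read 11.01, 11.06 and 11.28 on hypomorph arrays, against 10.97, 11.00 and 10.96 on wild-type arrays. Every hypomorph array lay above every wild-type array, but the nearest pair differed only in the second decimal, and the difference was 0.14 (SE 0.13). Sc5d, the desaturase that acts next, read 9.15, 8.94 and 9.02 on hypomorph arrays, against 9.31, 9.46 and 9.17 on wild-type arrays. The groups did not overlap, and the difference was -0.28 (SE 0.14, unadjusted p = 0.0849, adjusted p = 0.974 in limma). Dhcr7, the reductase of the final step, had the largest standard error of the 24 genes. It read 9.78, 8.63 and 8.59 on hypomorph arrays, against 9.99, 9.09 and 9.58 on wild-type arrays. Hypomorph 1 lay above 2 of the wild-type arrays, and the other hypomorph arrays lay below all of them. The Dhcr7 difference was -0.55 (SE 0.37), and it was -0.94 without hypomorph 1 and -0.33 without wild type 1.

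**Figure D2:**
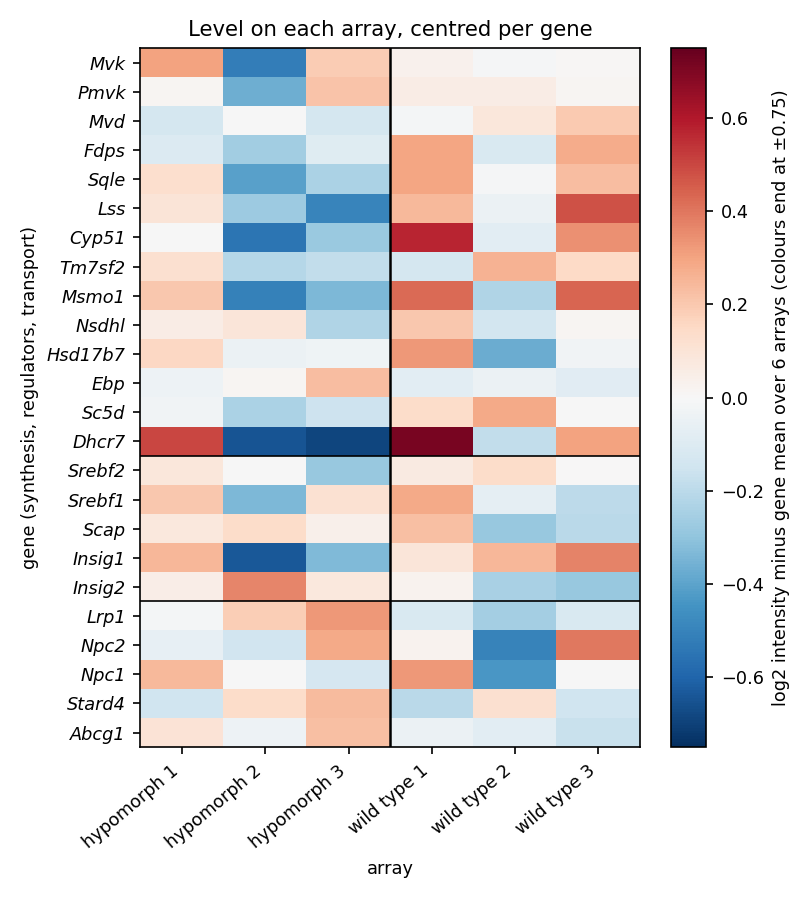
Log2 intensity of each tested sterol gene (rows, in pathway order, with lines between synthesis genes, regulators and transport genes) on each array (columns, hypomorphs left of the vertical line), minus the gene's mean over the 6 arrays. Hypomorph 2 is the lowest array for 8 of the 14 synthesis genes and wild type 1 the highest for 6, and Dhcr7 has the widest range. Over all 10764 named genes, hypomorph 2 is the lowest for 2641 and wild type 1 the highest for 2283.

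The regulators showed no common direction. Srebf2, the main factor for cholesterol genes, differed by -0.14 (SE 0.15) and on a second probe by -0.04 (SE 0.13). Srebf1, which favours fatty acid genes, differed by -0.01 (SE 0.20), and Scap by 0.17 (SE 0.17) and on a second probe by 0.14 (SE 0.48). The Insig genes had opposite signs. Insig1, itself a target of the sterol factors, read 9.15, 8.26 and 8.57 on hypomorph arrays, against 8.99, 9.15 and 9.27 on wild-type arrays. Hypomorph 1 lay among the wild-type values, and the other hypomorph arrays lay below all wild-type ones. The Insig1 difference was -0.48 (SE 0.23, unadjusted p = 0.0794, adjusted p = 0.974 in limma), with -0.16 (SE 0.18) and -0.23 (SE 0.21) on the other tested probes. It was -0.72 without hypomorph 1, -0.28 without hypomorph 2 and -0.27 without both arrays numbered 2.

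Insig2, whose product also retains Scap, read 10.06, 10.38 and 10.09 on hypomorph arrays, against 10.04, 9.77 and 9.73 on wild-type arrays. The groups did not overlap, although hypomorph 1 and wild type 1 nearly met. Its difference was 0.33 (SE 0.16, 95% interval -0.04 to 0.70, unadjusted p = 0.0710, adjusted p = 0.970 in limma). A second Insig2 probe differed by 0.03 (SE 0.16), with groups that overlapped.

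Among transport genes, Lrp1 had the largest difference. It encodes a receptor that takes up lipoproteins carrying apolipoprotein E, and read 7.82, 8.02 and 8.16 on hypomorph arrays, against 7.72, 7.58 and 7.72 on wild-type arrays. All hypomorph arrays lay above all wild-type arrays. The means were 8.00 ± 0.17 in the hypomorph and 7.68 ± 0.08 in wild type (SD, n = 3 each), a difference of 0.33 (SE 0.14, 95% interval -0.01 to 0.66), or 1.25-fold (unadjusted p = 0.0543, adjusted p = 0.946 in limma). Abcg1, an efflux transporter, read 9.06, 8.92 and 9.18 on hypomorph arrays, against 8.91, 8.88 and 8.79 on wild-type arrays. These groups did not overlap either, and the difference was 0.19 (SE 0.13, unadjusted p = 0.186, adjusted p = 0.999 in limma).

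The lysosomal and cytosolic carriers differed little. Npc2, a soluble sterol carrier of the lysosome, differed by 0.06 (SE 0.25), and Stard4, a cytosolic sterol carrier, by 0.15 (SE 0.16). Npc1, the membrane protein through which sterol leaves the lysosome, depended on the probe. Its brightest probe read 12.39, 12.14 and 12.02 on hypomorph arrays, against 12.47, 11.71 and 12.14 on wild-type arrays, a difference of 0.08 (SE 0.22). A second probe read 9.40, 9.38 and 9.30 on hypomorph arrays, against 9.60, 9.58 and 9.59 on wild-type arrays. There the groups did not overlap and the sign was opposite, with a difference of -0.23 (SE 0.12, unadjusted p = 0.0956, adjusted p = 0.985 in limma). The remaining Npc1 probe differed by -0.20 (SE 0.31). The count of 5 higher transport genes therefore rests on which Npc1 probe is used. It also rests on single arrays: 1 transport gene had a lower value without hypomorph 1 or without hypomorph 3, and 2 had lower values without wild type 2.

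**Figure D3:**
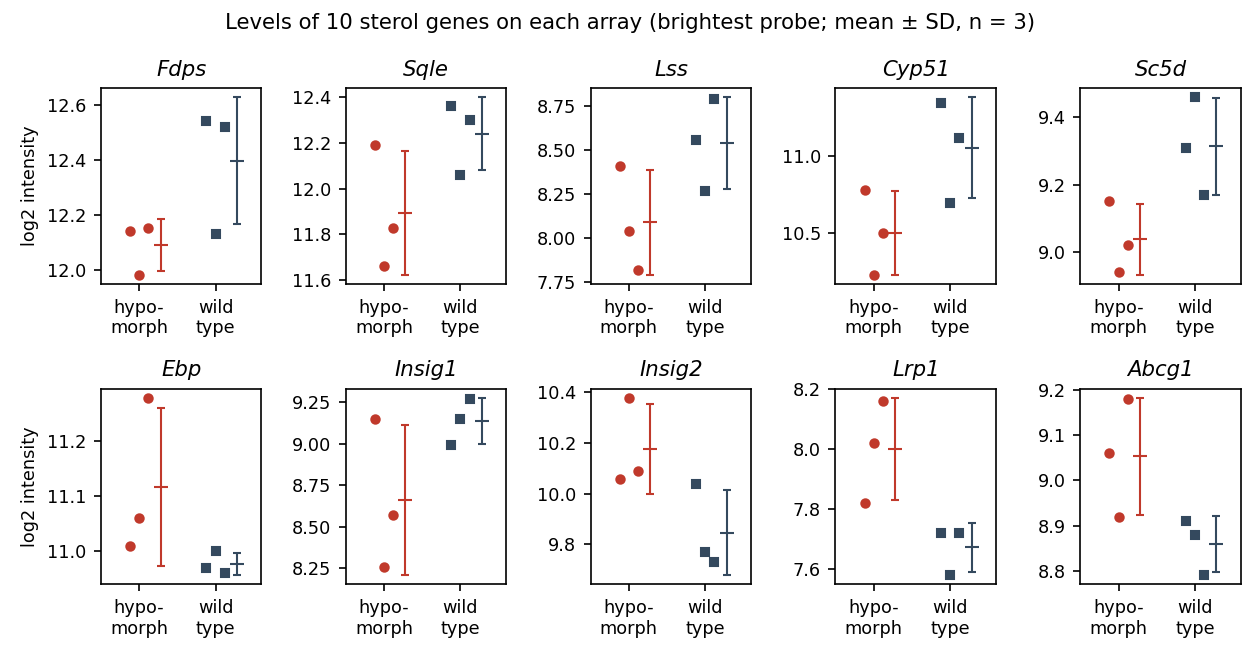
Log2 intensity (y axis, a separate scale for each gene that does not start at 0) of 10 sterol genes on the 3 hypomorph arrays (red circles) and the 3 wild-type arrays (dark squares), with mean ± SD beside the points. The groups do not overlap for Sc5d, Ebp, Insig2, Lrp1 and Abcg1, and they overlap or meet for Fdps, Sqle, Lss, Cyp51 and Insig1.

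Synthesis and transport genes were set against each other on each array, with every gene centred on its mean over the 6 arrays. The mean of the 14 synthesis genes was 0.09, -0.28 and -0.16 on hypomorph arrays 1, 2 and 3, against 0.22, -0.04 and 0.17 on wild-type arrays 1, 2 and 3, so hypomorph 1 lay above wild type 2. The mean of the 5 transport genes was 0.02, 0.03 and 0.19 on hypomorph arrays, against 0.00, -0.23 and -0.01 on wild-type arrays. It uses the brightest Npc1 probe, whose sign the other tested Npc1 probes did not share, and hypomorph 1 and wild type 1 nearly met. Synthesis minus transport was 0.07, -0.31 and -0.35 on hypomorph arrays, against 0.22, 0.19 and 0.17 on wild-type arrays. The wild-type arrays were close together in this measure and the hypomorph arrays were spread, with means of -0.20 ± 0.23 in the hypomorph and 0.20 ± 0.02 in wild type (SD, n = 3 each), a difference of -0.39. No test was made of a score over genes chosen in this way. Hypomorph 2 was the lowest array for 8 synthesis genes and hypomorph 3 for 3, and wild type 1 was the highest for 6. Hypomorph 2 had more than its share of extremes over all named genes too, being the lowest of the 6 arrays for 2641 of 10764, and so had wild type 2, for 2463. Wild type 1 was the highest array for 2283 of the 10764, the most of any array.

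Marker lists of oligodendrocytes and of astrocytes and Bergmann glia had their highest and lowest means on the same arrays as the synthesis genes within each group. Of 18 tested oligodendrocyte and myelin genes, 18 had lower values in the hypomorph, with a median of -0.24, and 0 passed the test. Differences ran from -0.80 for Gjb1, above background on 2 hypomorph arrays, to -0.02 for Mbp and Cd9. Wild type 1 was the highest array for 14 of the 18 genes, and for 2283 of all 10764 named genes. The centred mean of the myelin list was 0.10, -0.29 and -0.24 on hypomorph arrays, against 0.38, -0.17 and 0.23 on wild-type arrays. Array 1 was thus highest and array 2 lowest in each group, as for the synthesis genes. The summed intensity of the myelin list ran from 135000 to 164000 on hypomorph arrays and from 149000 to 181000 on wild-type arrays. Of 15 astrocyte and Bergmann glia genes, 13 had lower values, with a median of -0.14 and sums of 141000 to 175000 on hypomorph arrays and 157000 to 182000 on wild-type arrays. None of the brightest markers was near background: Mbp ran from 15.25 to 15.57 and Cldn11 from 14.62 to 15.13 over the 6 arrays, Slc1a3 from 15.23 to 15.38 and Aldoc from 14.87 to 15.30. Lower values were found for 5 of 8 granule cell genes and 0 of 3 Purkinje cell genes tested, with medians of -0.02 and 0.05. Only 3 of the 10 listed Purkinje cell genes were tested. For 4 of 10 microglia and 4 of 9 endothelial genes tested the values were lower, with medians of 0.05 and 0.01. The microglia list was highest on array 3 in each group, at 0.20 in the hypomorph and 0.10 in wild type. Over all named genes, too, array 2 had the lowest mean in each group, at -0.04 in the hypomorph and -0.02 in wild type. The part of glial RNA in the synthesis values was not tested.

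**Figure D4:**
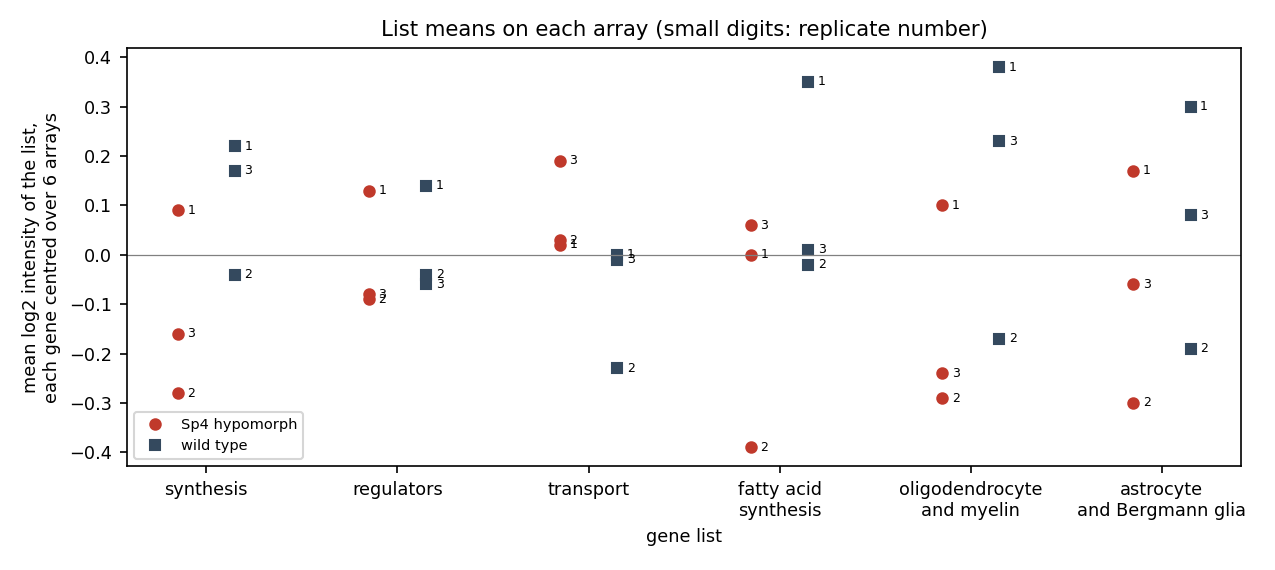
Mean log2 intensity of 6 gene lists on each array (y axis, each gene centred on its mean over the 6 arrays), with hypomorphs as red circles left of wild type as dark squares and the replicate number beside each point. Hypomorph 1 lies above wild type 2 in the synthesis list (0.09 and -0.04) and in the myelin list (0.10 and -0.17). In the transport list all 3 hypomorph points lie above the wild-type points, but hypomorph 1 (0.02) and wild type 1 (0.00) nearly meet. That list uses the brightest Npc1 probe.

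Other genes of sterol handling were followed in a list of 30, of which 19 were tested: 9 had lower and 10 higher values, with a median of 0.01, and 0 passed the test. The smallest unadjusted p was that of Cyp46a1, the neuronal hydroxylase that converts cholesterol into a form that leaves the brain. Cyp46a1 read 7.16, 6.92 and 7.15 on hypomorph arrays, against 7.83, 8.14 and 7.69 on wild-type arrays. The groups were well apart, with means of 7.08 ± 0.14 in the hypomorph and 7.89 ± 0.23 in wild type (SD, n = 3 each). Its difference was -0.81 (SE 0.16, 95% interval -1.20 to -0.43), or 0.569-fold (unadjusted p = 0.00149, adjusted p = 0.355 in limma). Gramd1a, which carries sterol between membranes, differed by -0.42 (SE 0.15, adjusted p = 0.834 in limma) on a probe above background on 1 hypomorph array and 3 wild-type arrays, and by 0.13 (SE 0.29) on a second probe. With the authors' processed values the first of these was -0.14.

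Fatty acid synthesis shares its regulators with the sterol path. Of 12 listed genes 11 were tested, 9 with lower and 2 with higher values, a median of -0.14 and 0 past the test. Fasn, fatty acid synthase, read 6.19, 5.53 and 5.83 on hypomorph arrays, against 6.36, 6.65 and 6.35 on wild-type arrays, which did not overlap. The Fasn difference was -0.60 (SE 0.20, unadjusted p = 0.0171, adjusted p = 0.793 in limma), on a probe above background on 2 of 3 hypomorph arrays and 3 of 3 wild-type arrays. It was -0.22 with the authors' processed values, -0.39 without background correction and -0.35 without both arrays numbered 2. The difference of Elovl5, a fatty acid elongase, was -0.19 (SE 0.14). Of 10 genes on isoprenoid branches, which use the early steps without leading to sterol, 7 were tested, 4 with lower and 3 with higher values and a median of -0.01. Rabggta and Rabggtb, the subunits of an enzyme that attaches isoprenoids to Rab proteins, differed by 0.17 (SE 0.15) and -0.06 (SE 0.13). By the brightest probes, all differences in this list lay between -0.06 and 0.17. A second Rabggtb probe differed by -0.16 (SE 0.19).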

How the data were processed

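Cerebellar RNA of 3 Sp4 hypomorph and 3 wild-type mice was read on Illumina bead arrays with BeadStudio, per the submitters' processing notes. The version is unstated. The intensity values deposited are linear and background-subtracted, as values below 0 show, with a detection p-value for every probe. A second deposited table of intensity values, with equal maxima on all arrays, served as an alternative. With limma 3.58.1 in R 4.3.3, neqc estimated the background from detection p-values, quantile-normalized the arrays and took log2 with an offset of 16, which makes differences of dim probes smaller; a shift of most transcripts one way would not be seen. Probes with a detection p under 0.05 on 3 or more arrays were fitted with lmFit and eBayes, with Benjamini-Hochberg adjustment over all 19515 and a threshold of 0.05. The number of arrays limits the precision. Intervals are limma's 95% intervals, unadjusted. The fit was tested on simulated data.

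By the platform annotation, 34885 probes carried 1 symbol, 18 several and 10378 none; 2778 tested probes were unnamed. The brightest tested probe stands for a gene. Values on each array are given for members whose groups do not overlap, with an unadjusted p under 0.1 or with probes of opposite sign; those of Dhcr7, Cyp46a1, Fasn and Sp4 were added after their values were seen. Of the other pathway lists, the 2 genes with the smallest p are named, and of marker lists bright members. The members and lists were chosen with earlier results of these data known. The design names 3 littermate pairs, but no label ties a number to a litter, so the fit has no block. Alternatives changed the block, background correction, scaling, offset, filter, variance model, array weights, probe choice and arrays used, or took the authors' processed values.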

Additional observations from a re-analysis of the deposited data

How the results depend on the processing

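No member passed under any alternative, the lowest adjusted p of a member probe in limma being 0.275. The count of probes called, 0 of all tested, was 2 with the replicate block, 5 without background correction, 5 with an offset of 50, 8 with the authors' processed values, 3 with detection on all 6 arrays, 8 with a variance trend and robust moderation together, 13 with array weights, and 0 to 2 with 1 array left out (1 without hypomorph 2, 2 without wild type 3). No label ties a replicate number to a litter. Deviations of same-numbered arrays from their group means correlated at 0.44, 0.40 and 0.06, the last too low to establish pairs, and each array correlated best with its own number. With 1 array of each number in each group, the replicate block cannot change a difference. The synthesis median of -0.23 and the transport median of 0.15 were therefore fixed under it. Standard errors and p-values could move, and the adjusted p of Cyp51 went from 0.900 to 0.331 in limma. Cyp51 was not called under the block, nor was any other member, while the count of probes called went from 0 to 2. The synthesis median ran from -0.31 to -0.19 with 1 array left out and from -0.32 to -0.18 otherwise. Synthesis minus transport ran from -0.52 to -0.32. The regulators' median was 0.16 with array weights and -0.12 to 0.14 with 1 array left out. Transport genes with lower values numbered 1 with median scaling and with the mean over probes, 2 with array weights and without both arrays numbered 2, and 0 to 2 with 1 array left out. Median scaling also moved the median of all tested probes by -0.07.

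Of 24 genes, 17 kept their sign on the brightest probe under every alternative. The replicate block, the variance model and the filters leave the difference of a probe as it is, so these could not turn a sign. Signs turned with median scaling for Hsd17b7 (-0.04), Npc2 (-0.05) and the second probes of Fdps (-0.03) and Insig2 (-0.07). The authors' values gave 0.00 for Mvk. With array weights they turned for Mvk (0.10), Pmvk (0.04), Srebf1 (0.16), Npc2 (-0.09), Npc1 (-0.02) and the second probes of Fdps (-0.06), Insig2 (0.00), Lss (0.02) and Scap (-0.09). Without both arrays numbered 2 they turned for Mvk (0.23), Pmvk (0.08), Hsd17b7 (-0.09), Srebf1 (0.11), Npc2 (-0.10), Npc1 (-0.10) and the second probe of Srebf2 (0.04). The cause was not tested. With 1 array left out, the ranges that crossed 0 were -0.17 to 0.24 for Mvk, -0.22 to 0.07 for Pmvk, -0.13 to 0.05 for Nsdhl, -0.13 to 0.22 for Hsd17b7, -0.12 to 0.15 for Srebf1, -0.18 to 0.27 for Npc2 and -0.12 to 0.26 for Npc1. On second probes they were -0.26 to 0.21 for Fdps (ILMN_1232741), -0.07 to 0.14 for Insig2 (ILMN_2690256), -0.48 to 0.04 for Npc1 (ILMN_1247075), -0.14 to 0.02 for Nsdhl (ILMN_2594521), -0.30 to 0.56 for Scap (ILMN_1229873), -0.18 to 0.05 for Sqle (ILMN_2600348), -0.12 to 0.03 for Srebf2 (ILMN_1234082). Without a change of sign, some differences moved by over 1.5 times: Sc5d to -0.16 and Insig2 to 0.19 without both arrays numbered 2, Lss to -0.68 with array weights, Abcg1 to 0.09 with median scaling and Lrp1 to 0.21 with the authors' values. Cyp46a1 kept its sign throughout, from -0.91 to -0.48, with an adjusted p of 0.170 or more. Dim probes, near background, have differences made smaller by the offset, and each arm rests on 3 arrays.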
